A study of Mus musculus with 19 samples.

Results

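The 38 genes described here belong to the interferon response and to antigen presentation, and all 38 have a row in the count table of 54176 gene symbols. They are a list of symbols by function, with no threshold on a value in these libraries. The list was chosen with earlier results of these data known. Its shares, set below beside those of all genes, therefore describe these libraries and are not an independent test. The libraries come from gastrocnemius (a calf muscle) of the inbred mouse strain FVB. The mCK-hLPL_REL group (n = 5) and the mCK-hLPL_WLM group (n = 5) carried mCK-hLPL, a transgene in which the promoter of muscle creatine kinase drives human lipoprotein lipase in muscle. The WT_REL group (n = 4) and the WT_WLM group (n = 5) were wild type. REL muscle was taken on the first day of weight regain, after 24 hours of refeeding, and WLM muscle during weight loss maintenance, so every animal had been through weight loss. The labels give neither age nor sex, and nothing in them ties libraries to animals. The p-values therefore cover only the spread among these libraries, and that spread may be technical.

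Interferons are secreted proteins that bind receptors on the cell surface and switch on a large set of antiviral genes through JAK kinases and STAT factors. Type I interferons act mainly through a complex with Stat2 and Irf9 that binds a DNA element called the ISRE, whereas interferon gamma acts mainly through a GAS element and through Irf1. Muscle fibres express little of the class I machinery at rest and raise it in inflammation, and fibroblasts, endothelial cells and macrophages in the tissue respond to interferon too. In whole muscle, fewer cells of a type and less RNA per cell cannot be told apart.

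Promoter stretches that hold these elements are shown first, with examples from the GTPase, transcription factor, effector and class I roles. RefSeq promoters on GRCm38.p6 (250 bases before to 50 after the start site) were found for 31 of the 38 genes, and Iigp1 and Ido1 are not among the 31. The ISRE core GAAANNGAAA, searched on both strands, lay in 18 of the 31 (58.1%), against 3.99% of 27025 genes with a promoter of this length. The GAS core TTCNNNGAA lay in 9 of 31 (29%), against 9.55% of those genes. All 8 interferon-inducible GTPase genes with a promoter held the ISRE core, and 5 of these held both cores. Of the 7 class I antigen presentation genes, 1 held the ISRE core and another 1 the GAS core. In Igtp, Irgm2, Tgtp1 and Tgtp2 the GAS core stood just before the ISRE core with 2 bases between them and no overlap. Irgm1 carried 2 ISRE cores that overlap, Isg15 carried 3 in a row, Irf1 carried the GAS core alone and B2m the ISRE core alone. The windows of 50 bases below run 5′ to 3′ on the gene's strand, and capitals mark the matched cores. They lie at chr11:58199499-58199548 (plus strand), chr11:58214890-58214939 (plus strand), chr11:48992297-48992346 (minus strand), chr11:49064256-49064305 (minus strand), chr11:48871421-48871470 (minus strand), chr11:53769912-53769961 (plus strand), chr4:156200859-156200908 (minus strand) and chr2:122147536-122147585 (plus strand), in the order of the lines. A match is a string of letters and was not tested for binding. A gene with no match may still hold an element with other letters or outside this stretch, which was not searched.
Igtp: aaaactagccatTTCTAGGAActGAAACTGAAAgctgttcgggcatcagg
Irgm2: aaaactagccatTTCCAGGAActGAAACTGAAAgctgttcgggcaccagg
Tgtp1: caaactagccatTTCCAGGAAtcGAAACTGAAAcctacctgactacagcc
Tgtp2: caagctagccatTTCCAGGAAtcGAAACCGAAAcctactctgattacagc
Irgm1: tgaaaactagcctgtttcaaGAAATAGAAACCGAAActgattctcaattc
Irf1: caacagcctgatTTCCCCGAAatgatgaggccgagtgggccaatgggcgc
Isg15: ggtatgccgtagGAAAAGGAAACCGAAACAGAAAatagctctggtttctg
B2m: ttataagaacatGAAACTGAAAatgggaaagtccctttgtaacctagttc

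Total counts ran from 35595030 to 51073355 per library, and all 38 genes passed the low-count filter that kept 17028 genes. Values are CPM, counts scaled to 1000000 per library on TMM-scaled library sizes. By position on GRCm38, 8 of the 38 lie on chromosome 11, among them 5 of the 9 interferon-inducible GTPases. Another 5, all of class I presentation, lie on chromosome 17 between 33996017 and 35267499, and Ifit1, Ifit2 and Ifit3 lie side by side on chromosome 19 between 34550694 and 34650009. Per kilobase of merged exons, B2m, the light chain of class I molecules, had the highest mean level, at 175 CPM, followed by the class I heavy chains H2-D1 at 119 CPM and H2-K1 at 26.1 CPM. Igtp, at 7.75 CPM per kilobase, was the highest of the GTPases, and Ifi44, at 0.0511 CPM per kilobase, was the lowest of the 38. The 6 skeletal muscle markers Acta1, Ckm, Myh4, Myh1, Tnnt3 and Mylpf together made up 94732 to 149630 CPM, the tissue on the label. In 3 libraries, WT_WLM replicates 1 and 5 and mCK-hLPL_WLM replicate 3, the 9 T cell markers summed to 27.6 to 36.0 CPM and the 8 B cell markers to 32.3 to 38.8 CPM, against 2.39 to 7.02 and 0.261 to 3.17 CPM in the other 16. The 6 markers of lymph node stroma and venules were at 38 to 51.7 CPM in the 3 and 11 to 23.7 CPM in the 16. Several comparisons are given with and without these 3. The 4 WT_REL libraries are called replicates 1, 2, A and B, since the column numbers of A and B do not match the sample titles. Values per library follow the order 1 to 5, or 1, 2, A and B.

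The question of refeeding was asked first in wild type, as WT_REL against WT_WLM. The interferon-inducible GTPases fell: 5 of 9 were lower, none was higher, and the log2 difference of the 9 ran from -1.83 to -0.48. Ido1 fell as well, which makes 6 of 38 genes lower and 0 higher by edgeR's quasi-likelihood test with Benjamini-Hochberg adjustment over all genes (threshold 0.05). In the same comparison 2.25% of all genes were called lower and 2.63% higher. The median log2 difference was -0.34 over the 38 and -1.0 over the 9 GTPases, against -0.0029 over all genes kept. Of the 38, 29 were fitted lower, where 50.4% of all genes were.

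Iigp1 (chromosome 18, 60376027 to 60392634, plus strand, GRCm38), a GTPase that attacks the vacuoles of intracellular parasites, was at 9.33, 26.9, 5.32 and 13.7 CPM in WT_REL. In WT_WLM it was at 31, 75.6, 49.7, 12.5 and 36.9 CPM. The fitted log2 difference in WT_REL was -1.57 ± 0.43 (± SE; edgeR adjusted p = 0.0412), although the groups overlapped: WT_REL replicates 2 and B stood above WT_WLM replicate 4. Tgtp1 (chromosome 11, 48985327 to 48994172, minus strand), a GTPase of the same family, was at 3.17, 5.56, 1.54 and 5.14 CPM in WT_REL and at 12.7, 15.1, 13.2, 5.89 and 22.6 CPM in WT_WLM. Every WT_REL library lay below every WT_WLM library, with WT_REL replicate 2 at 5.56 CPM only just below WT_WLM replicate 4 at 5.89 CPM. The difference of Tgtp1 was -1.83 ± 0.45 (edgeR adjusted p = 0.0257). Its near-identical neighbour Tgtp2 (chromosome 11, 49057194 to 49064206, minus strand) was at 5.87, 9.52, 1.85 and 8.02 CPM in WT_REL and at 19.8, 28.8, 19.4, 7.55 and 30.3 CPM in WT_WLM. The difference was -1.73 ± 0.43 (edgeR adjusted p = 0.0266), with WT_REL replicates 2 and B above WT_WLM replicate 4. The split of reads between Tgtp1 and Tgtp2 is uncertain. The count of Tgtp2 was 1.58 ± 0.282 times that of Tgtp1 in WT_REL (SD, n = 4) and 1.51 ± 0.247 times in WT_WLM (SD, n = 5). With the split uncertain, this ratio does not show that each of the 2 genes fell.

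Igtp (chromosome 11, 58199556 to 58207591, plus strand), a member of the regulatory class of these GTPases that protects the cell's own membranes from them, was at 6.4, 15, 5.84 and 8.75 CPM in WT_REL. It was at 19.7, 43.3, 26.7, 8.19 and 23.4 CPM in WT_WLM. The difference was -1.43 ± 0.36 (edgeR adjusted p = 0.0283), with WT_REL replicates 2 and B above the lowest WT_WLM library. Irgm1 (chromosome 11, 48861968 to 48871683, minus strand), also of the regulatory class, was at 9.04, 13, 9.92 and 10.1 CPM in WT_REL and at 16.4, 28.3, 18.5, 11.7 and 16.7 CPM in WT_WLM. The difference was -0.80 ± 0.19 (edgeR adjusted p = 0.019), the smallest in size of the 6 and the one with the smallest p, and WT_REL replicate 2 lay above WT_WLM replicate 4. Irgm2 (chromosome 11, 58199618 to 58222782, plus strand) was at 7.29, 19, 7.22 and 8.23 CPM in WT_REL and at 17.2, 37.2, 23.1, 9.03 and 18.1 CPM in WT_WLM. It did not pass (-1.0 ± 0.34, edgeR adjusted p = 0.0904), and WT_REL replicate 2 lay more than 10 CPM above the other WT_REL libraries. Igtp and Irgm2 overlap on the same strand in the annotation, so reads of the shared stretch may be split between them. The guanylate-binding proteins Gbp2, Gbp3 and Gbp7, which coat pathogen vacuoles, differed by -0.59 ± 0.27, -0.88 ± 0.30 and -0.48 ± 0.26, and none passed (edgeR adjusted p = 0.229, 0.0958 and 0.306).

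Ido1 (chromosome 8, 24584136 to 24597009, minus strand), the interferon-induced enzyme that starts tryptophan breakdown, was near the limit of detection, with 3 to 27 counts per library. It was at 0.144, 0.225, 0.0827 and 0.0935 CPM in WT_REL and at 0.276, 0.513, 0.668, 0.237 and 0.716 CPM in WT_WLM. The groups did not overlap, but WT_REL replicate 2 at 0.225 CPM lay only just below WT_WLM replicate 4 at 0.237 CPM. The difference of Ido1 was -1.78 ± 0.45 (edgeR adjusted p = 0.0286). In all, Tgtp1, Ido1 and Stat2 were lower in WT_REL with no overlap between the groups, 3 of 38 where 4.42% of all genes were, and no member was higher in that way. For Stat2 the nearest libraries were WT_REL replicate B at 5.76 CPM and WT_WLM replicate 4 at 6.11 CPM.

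**Figure D1:**
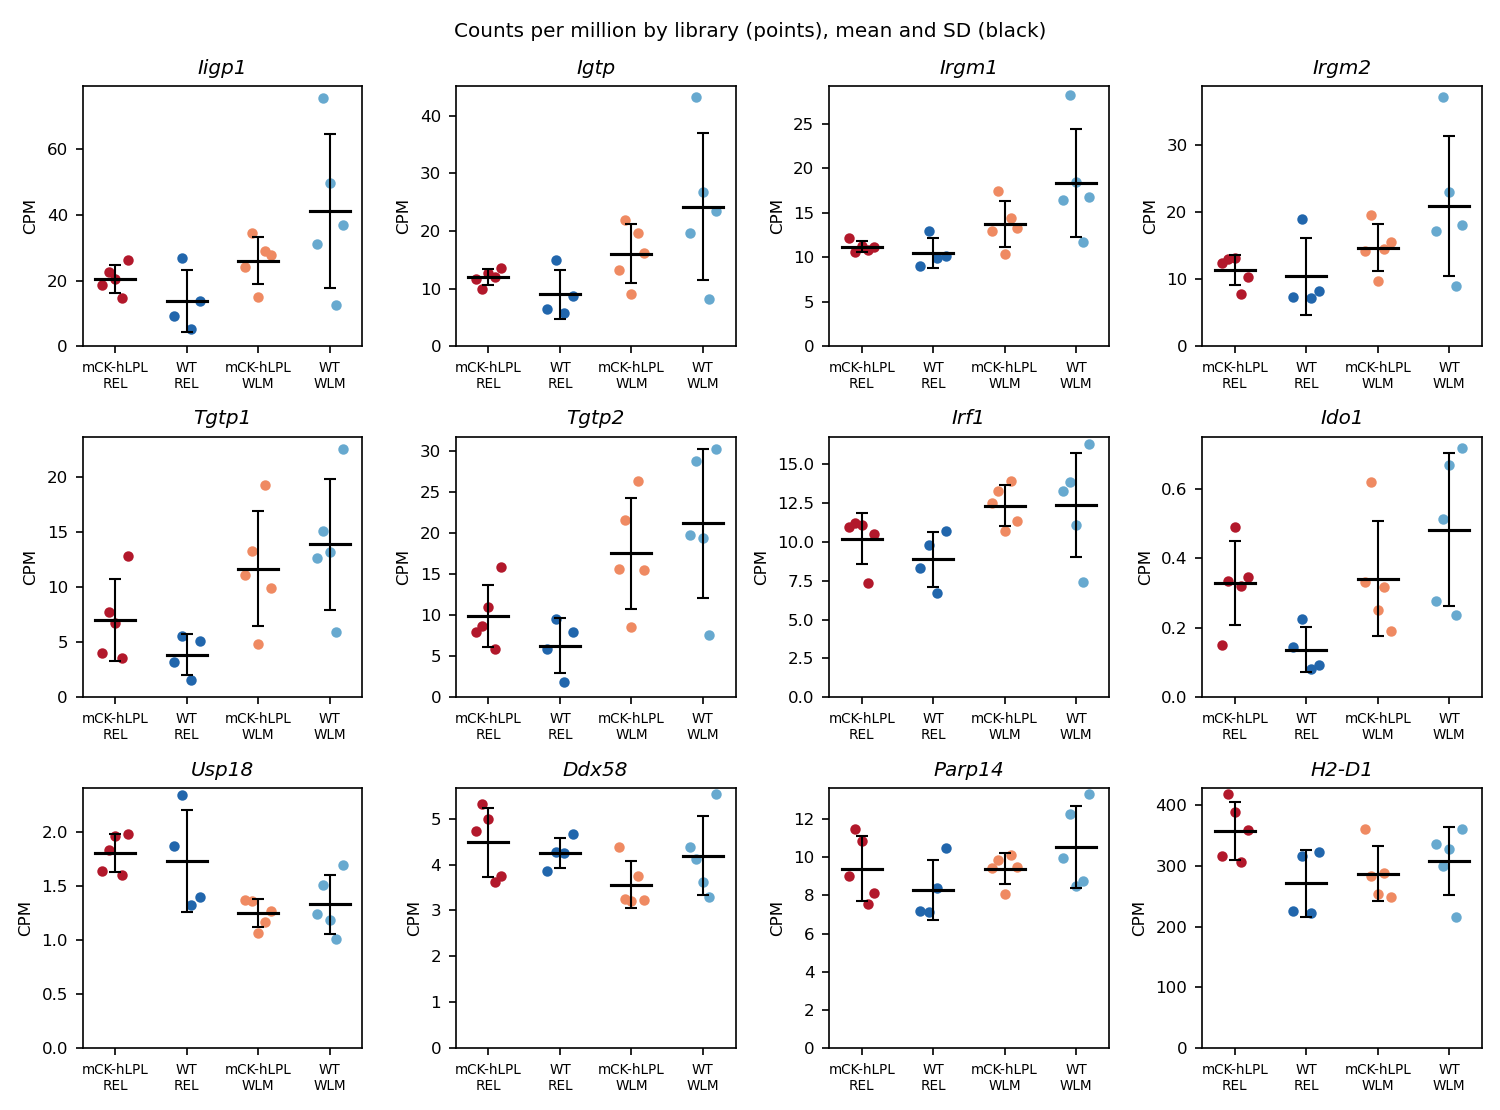
CPM of 12 genes in each library (points, y axis from 0) with the group mean and SD (black), for mCK-hLPL_REL (n = 5), WT_REL (n = 4), mCK-hLPL_WLM (n = 5) and WT_WLM (n = 5). For Iigp1, Igtp, Irgm1, Irgm2, Tgtp1 and Tgtp2 the WT_WLM libraries reach the highest values and spread most, and WT_WLM replicate 4, the lowest of its group for each, lies within the range of the REL libraries.

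These calls rested on few libraries. Without WT_REL replicate 1 or B no member was called, without WT_REL replicate A 1 was, without WT_WLM replicate 5 there were 2, without WT_WLM replicate 3 there were 3, and without WT_WLM replicate 4 there were 12. The call of Irgm1 ended without WT_REL replicate 1 or B (adjusted p = 0.0732 and 0.0686), and those of Tgtp1 and Tgtp2 without these, WT_REL replicate A or WT_WLM replicate 5 (adjusted p from 0.0503 to 0.0835). The calls of Igtp and Ido1 ended when WT_REL replicate 1, A or B or WT_WLM replicate 3 was left out, and also WT_WLM replicate 2 for Igtp and 5 for Ido1 (adjusted p from 0.0582 to 0.111). That of Iigp1 ended when WT_REL replicate 1, A or B was left out, when any WT_WLM replicate other than 4 was, or when mCK-hLPL_REL replicate 3 was (adjusted p from 0.0518 to 0.129). Without the 3 libraries with lymphocyte transcripts, only Irgm1 kept its call (log2 difference -0.90, adjusted p = 0.0359). In that fit Iigp1 was at -1.74, Igtp at -1.54, Tgtp1 at -1.56, Tgtp2 at -1.56 and Ido1 at -1.76 (edgeR adjusted p from 0.0544 to 0.0845). Without WT_REL replicates A and B together none of the 6 kept its call (edgeR adjusted p from 0.167 to 0.277). With the replicate number added as a block in those 17 libraries, none did either (edgeR adjusted p from 0.193 to 0.441). DESeq2 called 10 members lower and none higher, where it called 4.44% of all genes lower and 4.3% higher.

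Outside the GTPases and Ido1 no member was called by edgeR in wild type, and no test compared the roles with each other. The 4 transcription factors were all fitted lower, with a median of -0.41 and 3 at an unadjusted p under 0.05, where 10% of all genes were at such a p and lower. DESeq2 called 1 of them lower, and 1 effector and 1 class I gene as well. Irf1 (chromosome 11, 53770014 to 53778374, plus strand), a transcription factor at the centre of the interferon gamma response, was at 8.34, 9.82, 6.7 and 10.7 CPM in WT_REL and at 13.3, 13.9, 11.1, 7.42 and 16.3 CPM in WT_WLM. The difference of -0.47 ± 0.18 did not pass (edgeR adjusted p = 0.14). Stat2 and Irf9, parts of the ISRE-binding complex, were at -0.59 ± 0.18 (edgeR adjusted p = 0.0617) and -0.35 ± 0.15 (edgeR adjusted p = 0.19), and Irf7, which drives interferon production, was at -0.33 ± 0.18 (edgeR adjusted p = 0.313). Of the 13 effectors and modifiers, 6 were fitted higher and 7 lower, with a median of -0.07 and no call. Trim30a, which restrains inflammatory signalling, came closest at -0.42 ± 0.13 (edgeR adjusted p = 0.0563).

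The sensors of viral nucleic acid showed no call either. Ddx58 (chromosome 4, 40203773 to 40239828, minus strand), which encodes the RNA sensor RIG-I, was at 3.85, 4.28, 4.24 and 4.66 CPM in WT_REL and at 4.38, 4.13, 3.63, 3.29 and 5.54 CPM in WT_WLM (0.02 ± 0.15, edgeR adjusted p = 0.954). Ifih1, the sensor of long double-stranded RNA, was at 0.11 ± 0.16, Dhx58, a related helicase, at 0.24 ± 0.26, and Zbp1, a sensor of Z-form nucleic acid, at -0.48 ± 0.46. All 7 class I antigen presentation genes were fitted lower, with differences from -0.80 for the peptide pump Tap1 to -0.06 for the immunoproteasome subunit Psmb10, and none passed. H2-D1 (chromosome 17, 35262730 to 35267499, plus strand) was at 226, 316, 222 and 322 CPM in WT_REL and at 336, 299, 328, 216 and 360.1 CPM in WT_WLM. The groups overlapped widely (-0.18 ± 0.16, edgeR adjusted p = 0.555).

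In mCK-hLPL muscle the comparison of mCK-hLPL_REL with mCK-hLPL_WLM gave no call among the 38 by edgeR, where 4.11% of all genes were called higher and 4.03% lower. At an unadjusted p under 0.05 there were 11, 10 higher and 1 lower, against 12.5% higher and 11.9% lower over all genes. DESeq2 called 3, all higher, Usp18, Rtp4 and H2-K1, where it called 6.27% of all genes higher. The median log2 difference was 0.22 over the 38, against 0.01 over all genes, of which 51.6% were fitted higher. By role, the effectors and modifiers were fitted higher in 13 of 13 (median 0.43), the sensors in 4 of 4 (0.42) and class I presentation in 6 of 7 (0.24), while the GTPases were fitted lower in 9 of 9 (-0.35). In this comparison mCK-hLPL_WLM replicate 3 is the library with lymphocyte transcripts. Without it the median over the 38 was 0.13, the lowest of the fits with 1 library left out.

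Usp18 (chromosome 6, 121245906 to 121270917, plus strand), which removes the ubiquitin-like modifier Isg15 and restrains the interferon receptor, was at 1.64, 1.83, 1.96, 1.61 and 1.98 CPM in mCK-hLPL_REL. In mCK-hLPL_WLM it was at 1.37, 1.36, 1.07, 1.17 and 1.27 CPM. Each REL library lay above each WLM library, the only member for which this was so (3.21% of all genes), with a difference of 0.53 ± 0.17 (edgeR adjusted p = 0.0596). In wild type Usp18 was at 1.87, 2.34, 1.32 and 1.4 CPM in WT_REL and at 1.24, 1.51, 1.19, 1.01 and 1.7 CPM in WT_WLM (0.38 ± 0.18, edgeR adjusted p = 0.231). Rtp4, a transmembrane protein induced by interferon, was at 2.47 ± 0.382 CPM in mCK-hLPL_REL and 1.73 ± 0.368 CPM in mCK-hLPL_WLM (SD, n = 5 each; 0.51 ± 0.18, edgeR adjusted p = 0.0757). H2-K1, a class I heavy chain, was at 92.8 ± 12.2 CPM in mCK-hLPL_REL and 67.7 ± 9.28 CPM in mCK-hLPL_WLM (SD, n = 5 each; 0.45 ± 0.16, edgeR adjusted p = 0.0805). The call of Usp18 appeared without WT_REL replicate 2 (adjusted p = 0.0467) and that of H2-K1 without WT_WLM replicate 4 (adjusted p = 0.0347), libraries that enter through the shared estimate of spread. In other fits with 1 library left out, edgeR's adjusted p reached 0.141 for Usp18, 0.183 for Rtp4 and 0.18 for H2-K1. Without mCK-hLPL_WLM replicate 3 the difference was 0.48 for Usp18 and 0.39 for Rtp4, the lowest of these fits.

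Among the other described genes, H2-D1 was at 316, 418, 388, 306 and 358 CPM in mCK-hLPL_REL and at 361, 283, 253, 289 and 248 CPM in mCK-hLPL_WLM (0.32 ± 0.15, edgeR adjusted p = 0.188). Ddx58 was at 4.73, 5.31, 5, 3.61 and 3.76 CPM in mCK-hLPL_REL and at 4.38, 3.24, 3.21, 3.75 and 3.23 CPM in mCK-hLPL_WLM (0.33 ± 0.14, edgeR adjusted p = 0.15). For both the highest REL libraries stood above the WLM range while the lowest lay within it. Iigp1 was at 18.5, 22.7, 20.4, 14.7 and 26.1 CPM in mCK-hLPL_REL and at 24.1, 34.3, 15, 29.1 and 27.9 CPM in mCK-hLPL_WLM (-0.35 ± 0.39, edgeR adjusted p = 0.628). Tgtp1 was at 4, 7.76, 6.78, 3.55 and 12.9 CPM in mCK-hLPL_REL and at 11.1, 13.3, 4.88, 19.3 and 9.92 CPM in mCK-hLPL_WLM (-0.74 ± 0.40, edgeR adjusted p = 0.269). For both GTPases the 2 groups overlapped. Tgtp2 was at 7.98, 8.75, 11, 5.92 and 15.8 CPM in mCK-hLPL_REL and at 15.6, 21.7, 8.57, 26.4 and 15.5 CPM in mCK-hLPL_WLM (-0.82 ± 0.39, edgeR adjusted p = 0.195). Igtp was at 11.6, 9.91, 12.7, 12 and 13.6 CPM in mCK-hLPL_REL and at 13.3, 22, 9.16, 19.7 and 16.2 CPM in mCK-hLPL_WLM (-0.42 ± 0.33, edgeR adjusted p = 0.456). For these 4 GTPases mCK-hLPL_WLM replicate 3 was the lowest of its group.

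The 2 other GTPases described by library were the regulatory Irgm1 and Irgm2. Irgm1 was at 12.2, 10.5, 11.2, 10.8 and 11.1 CPM in mCK-hLPL_REL and at 13, 17.5, 10.4, 14.4 and 13.3 CPM in mCK-hLPL_WLM (-0.29 ± 0.17, edgeR adjusted p = 0.314). Irgm2 was at 12.4, 13, 13.1, 7.87 and 10.4 CPM in mCK-hLPL_REL and at 14.2, 19.6, 9.71, 14.5 and 15.5 CPM in mCK-hLPL_WLM (-0.37 ± 0.31, edgeR adjusted p = 0.494). Irf1 was at 11, 11.2, 11.1, 7.35 and 10.5 CPM in mCK-hLPL_REL and at 12.5, 13.3, 10.7, 13.9 and 11.4 CPM in mCK-hLPL_WLM (-0.27 ± 0.17, edgeR adjusted p = 0.342). For each of these 3 genes the groups overlapped, and for Irf1 a single REL library, replicate 4 at 7.35 CPM, stood apart from the rest. Ido1 was at 0.151, 0.334, 0.49, 0.321 and 0.347 CPM in mCK-hLPL_REL and at 0.332, 0.618, 0.251, 0.317 and 0.19 CPM in mCK-hLPL_WLM, a difference of -0.03 ± 0.39 (edgeR adjusted p = 0.973). Parp14, a large ADP-ribosyltransferase and the effector of highest CPM, was at 9.01, 11.5, 10.8, 7.57 and 8.1 CPM in mCK-hLPL_REL and at 9.46, 9.83, 8.07, 10.1 and 9.5 CPM in mCK-hLPL_WLM. In wild type Parp14 was at 7.17, 7.14, 8.41 and 10.5 CPM in WT_REL and at 9.93, 12.2, 8.48, 8.77 and 13.3 CPM in WT_WLM, and it passed neither in mCK-hLPL (0.00 ± 0.14, edgeR adjusted p = 0.996) nor in WT (-0.34 ± 0.15, edgeR adjusted p = 0.206).

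The effectors below the threshold are given by their log2 differences in each genotype. Isg15 was at 0.64 ± 0.28 in mCK-hLPL and -0.07 ± 0.30 in WT. The Ifit proteins, which bind foreign RNA, were at 0.41 ± 0.25 in mCK-hLPL and -0.34 ± 0.27 in WT for Ifit1, 0.26 ± 0.16 in mCK-hLPL and 0.14 ± 0.18 in WT for Ifit2, and 0.43 ± 0.22 in mCK-hLPL and 0.14 ± 0.23 in WT for Ifit3. Rsad2, which encodes the antiviral enzyme viperin, was at 0.64 ± 0.28 in mCK-hLPL and 0.44 ± 0.31 in WT. Oasl2, an oligoadenylate synthetase-like protein, was at 0.46 ± 0.22 in mCK-hLPL and 0.02 ± 0.23 in WT. Ifi44, with 5 to 29 counts per library, was at 0.72 ± 0.37 in mCK-hLPL and -0.52 ± 0.40 in WT. None of these 7 passed in either genotype, and edgeR's adjusted p ran from 0.156 to 0.969. The interaction between genotype and refeeding, given further on, tests whether such pairs differ.

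**Figure D2:**
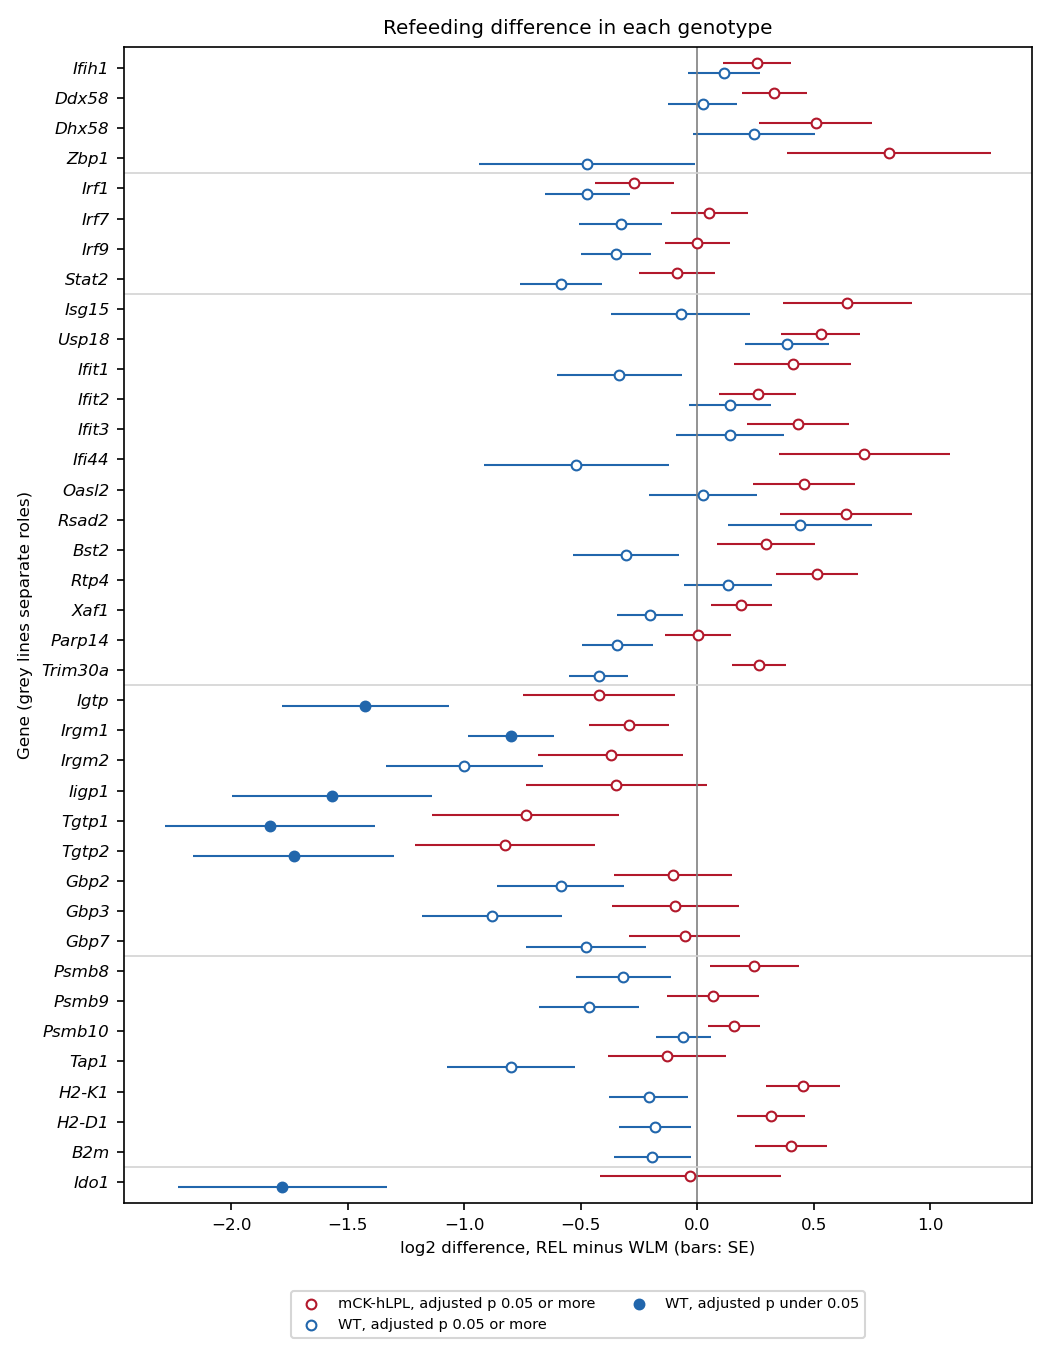
Log2 difference of REL minus WLM (x axis, bars are SE) for each of the 38 genes, in mCK-hLPL (red, n = 5 against 5) and in WT (blue, n = 4 against 5), with filled points where the edgeR adjusted p is under 0.05. The filled points are Igtp, Irgm1, Iigp1, Tgtp1, Tgtp2 and Ido1 in WT, and for each gene the red point lies to the right of the blue one.

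With both genotypes averaged, 9 of the 38 passed for REL against WLM: 8 were lower and 1 was higher, where 10.7% of all genes were called higher and 9.98% lower. The 8 lower were Tgtp2 at -1.28 ± 0.29, Tgtp1 at -1.29 ± 0.30, Iigp1 at -0.96 ± 0.29, Igtp at -0.92 ± 0.24, Ido1 at -0.91 ± 0.30, Irgm2 at -0.69 ± 0.23, Irgm1 at -0.55 ± 0.13 and Irf1 at -0.37 ± 0.12 (edgeR adjusted p from 0.00433 to 0.0392). Usp18 was the 1 higher, at 0.46 ± 0.12 (edgeR adjusted p = 0.0134). Thus 6 of 9 GTPases fell, none of the 7 class I presentation genes passed, and the 13 effectors held 1 call. Tgtp1, Tgtp2, Igtp, Irgm1 and Usp18 kept their calls without any 1 library. The call of Iigp1 ended without WT_REL replicate 1 (adjusted p = 0.0527), where the count fell to 5. Ido1, Irgm2 and Irf1 lost theirs without 8, 9 and 11 of the 19 libraries in turn, with adjusted p of at most 0.0878. Without the 3 libraries with lymphocyte transcripts 8 members were called, and Ido1 and Irf1 were not (adjusted p = 0.055 and 0.115). Without WT_REL replicates A and B together the calls of Tgtp1, Tgtp2, Irgm1 and Usp18 were left, and that of Igtp ended (edgeR adjusted p = 0.0775). With the replicate number added as a block in those libraries, the call of Tgtp1 ended as well (edgeR adjusted p = 0.051, and 0.094 for Igtp).

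Cell type markers moved with phase as well. The 9 macrophage markers summed to 145 to 302 CPM in mCK-hLPL_REL and 133 to 211 CPM in WT_REL, against 88.2 to 219.8 CPM in mCK-hLPL_WLM and 68.2 to 243 CPM in WT_WLM. The 5 fibroblast markers summed to 662 to 1114 CPM in mCK-hLPL_REL and 436 to 1014 CPM in WT_REL, against 333 to 769 CPM in mCK-hLPL_WLM and 254 to 820.1 CPM in WT_WLM. The mean sum of both lists was higher in REL. Averaged over the genotypes, edgeR called 4 of 7 kept T cell markers (median -2.33) and 7 of 7 kept B cell markers (median -4.20) lower in REL, where 9.98% of all genes were. In WT alone their medians were -3.45 and -5.57, with no call and 5 and 7 lower at an unadjusted p under 0.05 (10% of all genes). The median library held 4.41 CPM of T cell markers in mCK-hLPL_REL and 4.14 CPM in WT_REL, against 4.72 CPM in mCK-hLPL_WLM and 3.74 CPM in WT_WLM. It held 0.836 CPM of B cell markers in mCK-hLPL_REL and 0.442 CPM in WT_REL, against 0.676 CPM in mCK-hLPL_WLM and 1.32 CPM in WT_WLM. This median was thus lower in REL in mCK-hLPL alone for T cell markers and in WT alone for B cell markers. The 3 libraries named above with most of these markers are all WLM libraries. The 5 red cell markers, mostly haemoglobin genes, summed to 1775 to 11653 CPM in mCK-hLPL_REL and 1017 to 4482 CPM in WT_REL, against 870.1 to 3109 CPM in mCK-hLPL_WLM and 497 to 1694 CPM in WT_WLM. The 6 natural killer cell markers summed to 2.39 to 3.23 CPM in those 3 libraries and to 0.237 to 0.985 CPM in the other 16. Endothelial markers, 6 genes, summed to 199.5 to 257 CPM in mCK-hLPL_REL and 185 to 247 CPM in WT_REL, against 154 to 221 CPM in mCK-hLPL_WLM and 168 to 238 CPM in WT_WLM. In the average over genotypes, edgeR called 5 of 5 red cell, 3 of 5 fibroblast, 3 of 6 endothelial and 1 of 9 macrophage markers higher in REL. Of all genes 10.7% were called higher. It called 2 of 6 skeletal muscle markers and 2 of 4 kept lymph node markers lower, and none of 3 kept natural killer cell markers. The part of these cells in the results was not tested.

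The next question was whether the genotypes differed on the first day of regain. In mCK-hLPL_REL against WT_REL, no member was called by edgeR or DESeq2, where edgeR called 0.0117% of all genes. At an unadjusted p under 0.05 edgeR gave 11 members higher and 0 lower, against 2.24% and 2.13% of all genes, and DESeq2 gave 12 in all (4.48% of all genes). All 38 were fitted higher in mCK-hLPL_REL, where 52.9% of all genes were, with a median of 0.40 over the 38 and 0.01 over all genes. The members were often high or low in the same libraries, so they are not 38 separate observations. Isg15, Bst2 and Trim30a were higher with no overlap between the groups, 3 of 38 against 0.722% of all genes.

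Isg15, a ubiquitin-like protein that is attached to other proteins, was at 0.831, 0.845, 0.981, 1.04 and 1.22 CPM in mCK-hLPL_REL and at 0.556, 0.743, 0.689 and 0.71 CPM in WT_REL (0.55 ± 0.29, edgeR adjusted p = 1). Bst2, which tethers budding viruses to the cell, was at 5.21, 6.16, 6.29, 5.16 and 7.84 CPM in mCK-hLPL_REL and at 4, 4.98, 3.75 and 5.1 CPM in WT_REL (0.46 ± 0.22, edgeR adjusted p = 1). The lowest mCK-hLPL_REL library lay only just above the highest WT_REL library for Bst2. Trim30a had the smallest p. It was at 3.48, 4.01, 3.43, 3.25 and 3.67 CPM in mCK-hLPL_REL and at 2.72, 2.52, 2.81 and 2.75 CPM in WT_REL (0.40 ± 0.12, unadjusted p = 0.00431, edgeR adjusted p = 0.872). Ido1, with the values given above, was higher by 1.26 ± 0.45 (edgeR adjusted p = 1), and Xaf1, a pro-apoptotic interferon-induced protein, averaged 2.96 ± 0.505 CPM in mCK-hLPL_REL (SD, n = 5) and 2.25 ± 0.284 CPM in WT_REL (SD, n = 4; 0.39 ± 0.14, edgeR adjusted p = 1). Class I presentation was fitted higher in 7 of 7. H2-K1 averaged 92.8 ± 12.2 CPM in mCK-hLPL_REL (SD, n = 5) and 67.1 ± 14.4 CPM in WT_REL (SD, n = 4), a log2 difference of 0.47 ± 0.17 that did not pass. B2m averaged 176 ± 22.6 CPM in mCK-hLPL_REL (SD, n = 5) and 135 ± 20 CPM in WT_REL (SD, n = 4; 0.38 ± 0.16). Psmb8, which replaces Psmb5 in the immunoproteasome, averaged 16.4 ± 2.96 CPM in mCK-hLPL_REL (SD, n = 5) and 11.3 ± 3 CPM in WT_REL (SD, n = 4) with a log2 difference of 0.54 ± 0.21. The ratio of Psmb8 to Psmb5 CPM was 0.340 ± 0.0699 in mCK-hLPL_REL (SD, n = 5) and 0.245 ± 0.0760 in WT_REL (SD, n = 4). None of these differences passed after adjustment.

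During weight loss maintenance most fitted differences between the genotypes were negative. In mCK-hLPL_WLM against WT_WLM, no member was called by edgeR or DESeq2 (0.0294% of all genes by edgeR), with 2 lower at an unadjusted p under 0.05 by edgeR (2.47% of all genes) and 3 in all by DESeq2 (4.74%). Of the 38, 31 were fitted lower and 7 higher, where 50.1% of all genes were lower, with a median of -0.14. Without the 3 libraries with lymphocyte transcripts the median was 0.05, with 21 higher and 17 lower. Irgm1 averaged 13.7 ± 2.57 CPM in mCK-hLPL_WLM and 18.3 ± 6.1 CPM in WT_WLM (SD, n = 5 each; -0.42 ± 0.17, edgeR adjusted p = 0.942). Trim30a was at -0.28 ± 0.12 and Stat2 at -0.34 ± 0.16 (edgeR adjusted p = 0.942 for both). The difference of Irgm1 was -0.22 without WT_WLM replicate 2, and that of Stat2 was -0.22 without WT_WLM replicate 5. Averaged over the phases, no member was called by edgeR or DESeq2, where edgeR called 0.211% of all genes. Rsad2 was the 1 member at an unadjusted p under 0.05 by edgeR, where 3.46% of all genes were and higher (0.60 ± 0.21, adjusted p = 0.527), and DESeq2 had 2 (6.83% of all genes). Xaf1 and Rtp4 came next at 0.20 ± 0.10 and 0.26 ± 0.13 (edgeR adjusted p = 0.747 for both). Rsad2 was at 7.18, 3.34, 3.58, 2.33 and 2.82 CPM in mCK-hLPL_REL and at 2.12, 1.85, 2.37 and 3.1 CPM in WT_REL, where mCK-hLPL_REL replicate 1 stood above all others.

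**Figure D3:**
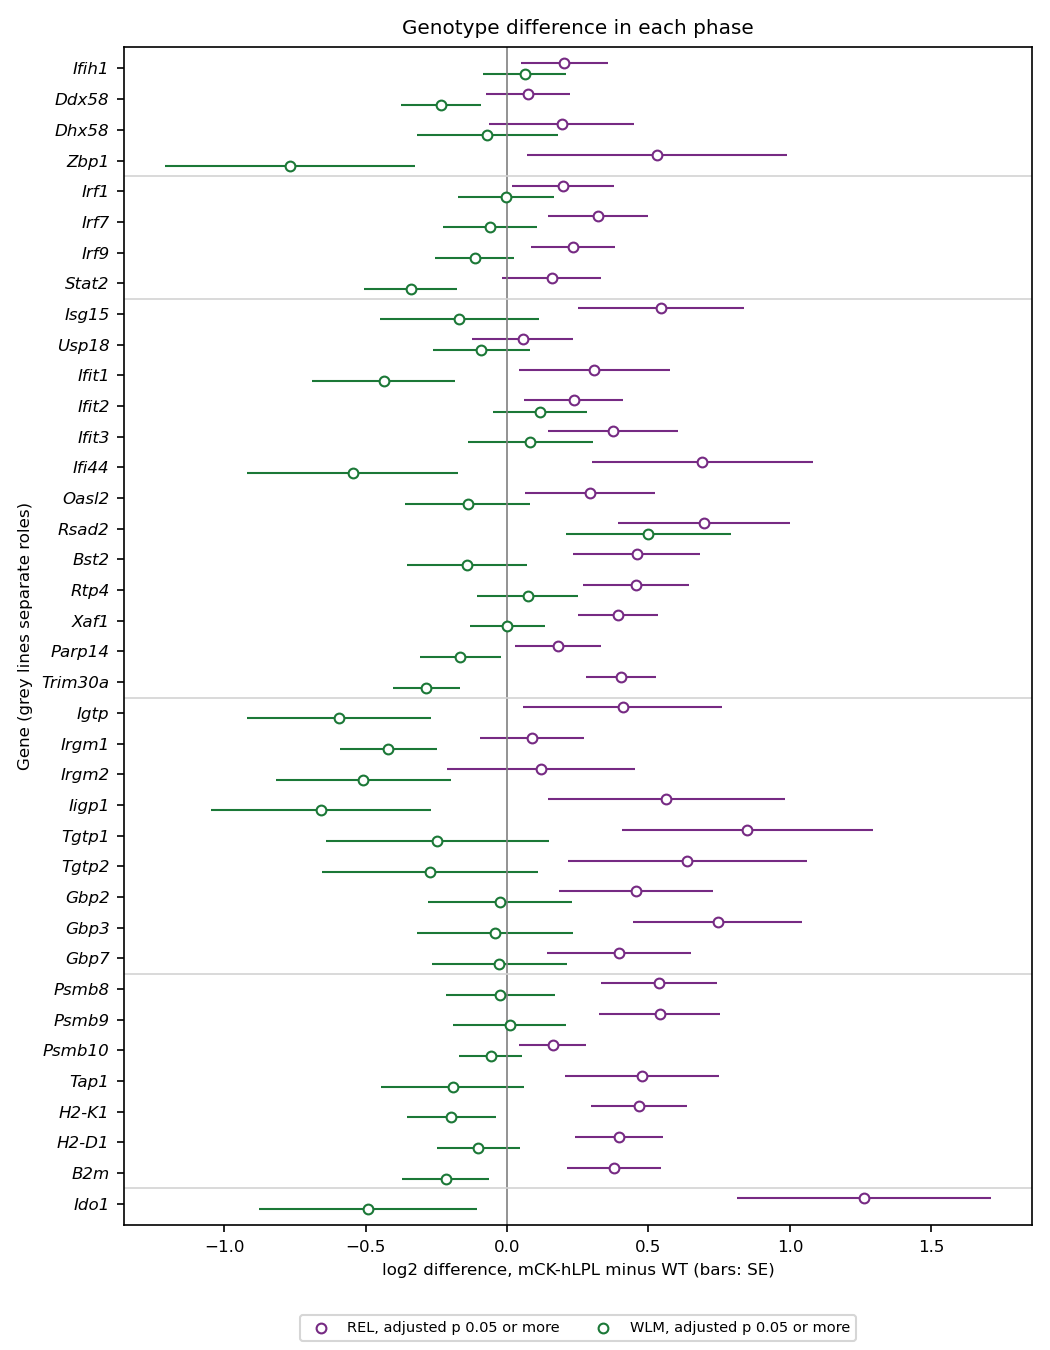
Log2 difference of mCK-hLPL minus WT (x axis, bars are SE) for each of the 38 genes, in REL (purple, n = 5 against 4) and in WLM (green, n = 5 against 5). All points are open, since no gene had an edgeR adjusted p under 0.05. In REL all 38 lie above 0, and in WLM 31 lie below 0.

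Whether refeeding acted differently in the genotypes was tested by the interaction, the refeeding difference in mCK-hLPL minus that in WT. No member and no other gene was called by edgeR (0% of 17028), and DESeq2 called no member and 2 genes. At an unadjusted p under 0.05 edgeR gave 8 members, all positive (1.27% of all genes were), and DESeq2 gave 12 (2.27%). The interaction was fitted positive for 38 of 38 members, against 52% of all genes, with a median of 0.50 against 0.01. It uses the same WT_REL libraries as the genotype difference in REL and the refeeding difference in WT, so these 3 results are not independent of each other. Trim30a had the smallest p, at 0.69 ± 0.17 (unadjusted p = 0.00072, edgeR adjusted p = 1): it was at 3.48, 4.01, 3.43, 3.25 and 3.67 CPM in mCK-hLPL_REL and 3.19, 2.78, 3.15, 3.46 and 2.3 CPM in mCK-hLPL_WLM. In wild type it was at 2.72, 2.52, 2.81 and 2.75 CPM in WT_REL and 3.94, 3.52, 3.74, 2.8 and 4.14 CPM in WT_WLM. Ido1 and H2-K1 followed at 1.75 ± 0.59 and 0.66 ± 0.23 (edgeR adjusted p = 1 for both). Without the 3 libraries with lymphocyte transcripts the median was 0.35, with 34 positive and 4 negative. The GTPases called in wild type were therefore not shown to respond differently in mCK-hLPL: their interactions ran from 0.51 for Irgm1 to 1.22 for Iigp1 and none passed.

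Libraries of 1 group were often low for many members at once, and of the roles with more than 1 gene the GTPases varied most in each group. Over the 38, the highest library of WT_WLM was at the median 2.01 times the lowest, against 1.43 times over all genes, and the ratio was 3.83 for the GTPases and 2.0 for class I presentation. In mCK-hLPL_REL the same ratios were 1.52 for all members and 1.78 for the GTPases, against 1.49 over all genes. WT_WLM replicate 4 was the lowest of its group for 34 of 38 members, mCK-hLPL_REL replicate 4 for 27, mCK-hLPL_WLM replicate 3 for 25 and WT_REL replicate A for 22. WT_WLM replicate 5 was the highest of its group for 19 and replicate 2 for 13. How often these libraries were lowest or highest over all genes was not counted. WT_WLM replicate 2 led in Iigp1, Igtp, Irgm1 and Irgm2, and it was not 1 of the 3 libraries with lymphocyte transcripts. The macrophage markers summed to 68.2 CPM in WT_WLM replicate 4, the lowest of the 19 libraries, and the fibroblast markers to 254 CPM, also the lowest. In WT_REL replicate A they summed to 133 and 436 CPM, the lowest of that group. In mCK-hLPL_REL replicate 4 they were at 185 and 668 CPM, within the range of the group. The skeletal muscle markers summed to 149630 CPM in WT_WLM replicate 4, the highest of the 19 libraries. They were at 134261 CPM in WT_REL replicate A and 138354 CPM in mCK-hLPL_REL replicate 4, each the highest of its group. In mCK-hLPL_WLM replicate 3 they were at 136433 CPM, within the range of the group.

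**Figure D4:**
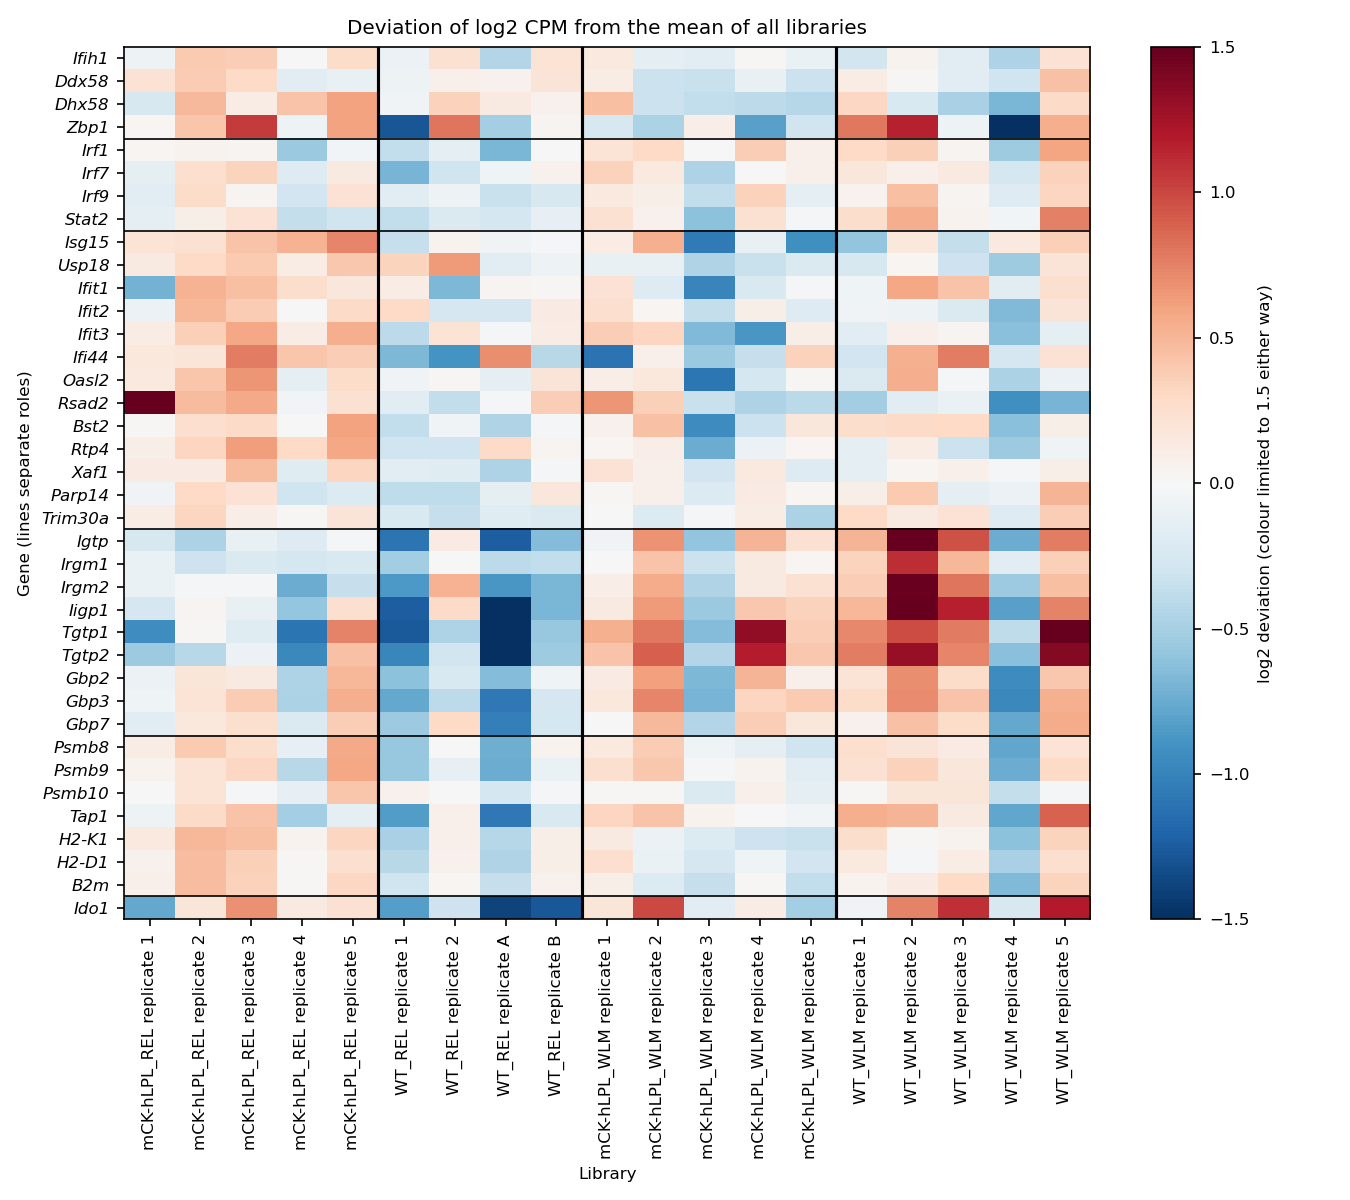
Deviation of log2 CPM from the mean over all 19 libraries for the 38 genes (rows, by role) in each library (columns, by group; colour limited to 1.5 either way). The GTPase rows are reddest in WT_WLM replicates 2 and 3 (median deviation 1.11 and 0.74) and bluest in WT_REL replicates A and 1 (-1.07 and -0.86), and WT_WLM replicate 4 is blue in nearly all rows (lowest of its group for 34 of 38).

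Genes of the same pathway outside the 38 were read from 7 further lists, 122 genes of which 106 passed the filter. Of 11 interferon ligand genes 10 had no count in any library, where 3 counts, the limit that a count of 0 allows, would be 0.0587 to 0.0843 CPM. Ifng, which encodes interferon gamma, had 3 counts in all, 1 in each of 3 libraries. Transcripts of the ligands were thus not detectable at this depth beyond those 3 reads. Among 15 kept genes for receptors, kinases and brakes of the pathway and 12 for adaptors of nucleic acid sensing, none was called in either genotype on refeeding or between genotypes in either phase by edgeR or DESeq2. At an unadjusted p under 0.05 edgeR gave 0 to 4 of the 15 and 0 to 1 of the 12 in these comparisons, where 4.86% of all genes had such a p between genotypes in WLM, 4.36% in REL, 20.6% on refeeding in WT and 24.4% in mCK-hLPL. Averaged over the genotypes, the receptor-bound kinase Jak1 (0.15 ± 0.05, edgeR adjusted p = 0.0285) and the endosomal RNA sensor Tlr3 (0.29 ± 0.10, edgeR adjusted p = 0.0407) were higher in REL. They were 1 of the 15 and 1 of the 12, where 10.7% of all genes were called higher.

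The list of other interferon-induced genes, 48 kept of 51, is described next. In WT_REL against WT_WLM 6 of the 48 fell and none rose by edgeR (2.25% of all genes fell), with a median of -0.18. The 4 of smallest p were Gbp11 (-1.38 ± 0.26), Ifi47 (-1.36 ± 0.33), Gbp9 (-0.91 ± 0.22) and Gbp4 (-1.40 ± 0.37), all GTPases of the same families (edgeR adjusted p from 0.00625 to 0.0349). In mCK-hLPL_REL against mCK-hLPL_WLM 4 rose and none fell (4.11% of all genes rose), with a median of 0.18. These were Ifi27 (0.42 ± 0.10), Ifi203 (0.61 ± 0.16), Ly6e (0.37 ± 0.10) and Lgals3bp (0.61 ± 0.17) (edgeR adjusted p from 0.0193 to 0.0335). In mCK-hLPL_REL against WT_REL 41 of the 48 were fitted higher, with a median of 0.24, 10 higher at an unadjusted p under 0.05 (2.24% of all genes) and none called by edgeR or DESeq2. Both comparisons of WT_REL use the same 4 libraries.

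Of the 17 other class I presentation genes none was called in either genotype on refeeding or between genotypes in either phase by edgeR, with 1 to 5 at an unadjusted p under 0.05 (4.36% to 24.4% of all genes). DESeq2 called 1 lower in WT_REL and 1 higher in mCK-hLPL_REL, each against its WLM group. The class I gene H2-T22 was higher in mCK-hLPL averaged over the phases (0.39 ± 0.08, edgeR adjusted p = 0.0288), and it may share reads with its near-identical neighbours. Averaged over the genotypes, Nlrc5, the activator of class I transcription, was lower in REL (-0.60 ± 0.19, edgeR adjusted p = 0.0275) and Pdia3, a chaperone of the peptide-loading complex, higher (0.35 ± 0.08, edgeR adjusted p = 0.00587). Each was 1 of the 17, where 9.98% of all genes were called lower and 10.7% higher. Psmb5, Psmb6 and Psmb7, the constitutive counterparts of the immunoproteasome subunits, had no call by edgeR in any comparison (1 by DESeq2, lower in REL averaged over the genotypes) and lay between -0.17 and 0.02 in WT_REL against WT_WLM. The 11 class II presentation genes, which mark professional antigen-presenting cells, were fitted lower in WT_REL in 11 of 11 with a median of -0.94 and no call by edgeR (7 at an unadjusted p under 0.05, against 10% of all genes, and 3 called by DESeq2, against 4.44%). In mCK-hLPL_REL against mCK-hLPL_WLM 7 of the 11 were fitted higher (median 0.34), where 51.6% of all genes were. In mCK-hLPL_REL against WT_REL 10 were (median 0.58), where 52.9% of all genes were. The interaction was positive for 11 of 11, with 6 at an unadjusted p under 0.05 by edgeR (1.27% of all genes). None was called in these 3 comparisons. B cells carry class II, and the 3 libraries with 32.3 to 38.8 CPM of B cell markers are all WLM libraries. The part of those cells in the class II values was not tested.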

How the data were processed

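Gastrocnemius RNA was isolated with an RNeasy column and made into libraries with the NuGEN Universal Plus mRNA kit, per the labels' protocols. The deposited table holds whole-number counts per gene symbol for 19 libraries, with Salmon 0.14.2, DESeq2 1.28.1 and mm10 (GRCm38) named in the submitters' processing notes. The strand setting is not given in the sources used here, so reads of overlapping antisense genes cannot be told apart. The deposited values are named as raw counts, while their sheet is named for variance-stabilised, normalized values. They are whole numbers with library totals that differ (35595030 to 51073355), and they were treated here as raw counts. Differing totals alone do not show that no scaling was applied. Of 54176 rows, 19516 had no count and 24 carried date-like symbols.

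Here edgeR 4.0.16 (R 4.3.3) was used: filterByExpr (minimum count 10, minimum total 15) kept 17028 genes, TMM factors ran from 0.88 to 1.17, and 1 quasi-likelihood model of 4 group means was fitted to all 19 libraries, so that the groups share 1 estimate of spread. The 7 contrasts were adjusted by Benjamini-Hochberg over all genes kept, with a threshold of 0.05. The SE is the log2 difference divided by the square root of F. Alternatives were DESeq2 1.42.0, DESeq2 size factors, no low-count filter, a replicate block, leaving out each library, and, chosen after seeing the data, leaving out the 3 libraries with lymphocyte transcripts and the 17 numbered libraries with no block, that is without WT_REL replicates A and B. The procedure was tested on simulated data.

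The members and lists were chosen with earlier results of these data known. In each contrast the members past the threshold are named, or the 3 of smallest p where fewer pass. Values per library are given for members called in any contrast and for the member of highest mean CPM in each role. Members with other values are named by role. A further gene that this rule names is not reported here. Of each further list at most 4 called genes are named. The 9 lists of markers used in the text are T cell, B cell, natural killer cell, lymph node stroma, macrophage, fibroblast, endothelial, red cell and skeletal muscle. All 38 symbols matched GENCODE M21 (GRCm38), and 19 overlap another annotated gene. Replicate pairs of 1 group all differed by more than counting noise (chi-square per degree of freedom of at least 25.8).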

Additional observations from a re-analysis of the deposited data

Results flagged for a closer look

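Single libraries stood apart from their group in 9 of 152 sets of 4 or 5 values tested by Dixon's criterion, which chance alone meets in about 1 set in 20. WT_WLM replicate 4 was below its group for Bst2 at 3.33 CPM (nearest 5.49), for Psmb8 at 7.96 CPM (nearest 14.9) and for Psmb9 at 3.51 CPM (nearest 6.68). mCK-hLPL_WLM replicate 1 was above its group for Dhx58 at 1.04 CPM (nearest 0.592), and mCK-hLPL_WLM replicate 3 below it for Rtp4 at 1.09 CPM (nearest 1.75). In mCK-hLPL_REL, replicate 4 was below for Irf1 at 7.35 CPM (nearest 10.5) and replicate 1 above for Rsad2 at 7.18 CPM (nearest 3.58). In WT_REL, replicate 2 was below for Ifit1 at 0.720 CPM (nearest 1.20) and above for Irgm2 at 19 CPM (nearest 8.23).

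In 6 cases every mCK-hLPL or REL library lay on 1 side of the mean log2 CPM of the group it was set against in 1 setting, and every such library lay on the opposite side in the other setting. The share of all genes that meet this rule was not computed. The count of 6 therefore cannot show whether such cases are more frequent among the members than elsewhere. The fitted log2 differences of these 6 cases are as follows. The genotype difference was positive in REL and negative in WLM for Zbp1 (0.53 in REL, -0.77 in WLM), Trim30a (0.40 in REL, -0.28 in WLM), Irgm1 (0.0891 in REL, -0.42 in WLM) and Iigp1 (0.56 in REL, -0.66 in WLM). The refeeding difference was positive in mCK-hLPL and negative in WT for Bst2 (0.30 in mCK-hLPL, -0.31 in WT) and Trim30a (0.26 in mCK-hLPL, -0.42 in WT). The difference itself was tested by the interaction, and edgeR's adjusted p was 1 for each of these genes.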

How the results depend on the processing

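The median log2 difference of the 38 genes moved by less than the spread between libraries (within-group SD of 0.26) under the alternatives run. This SD is larger than some of the medians, such as 0.22 for refeeding in mCK-hLPL. No gene that was called, or was named for its small p, in a contrast turned its direction there. Parp14 for refeeding in mCK-hLPL went from 0.0022 to -0.005 with the DESeq2 size factors. The median itself turned in 2 contrasts: to 0.05 for genotype in WLM without the 3 libraries with lymphocyte transcripts (-0.14 with them), and to 0.00 or 0.01 for refeeding averaged without mCK-hLPL_WLM replicate 2 or mCK-hLPL_REL replicate 4 (-0.02 with all). DESeq2 called 22 genes for genotype in WLM, 27 for genotype in REL, 84 for genotype averaged, 2 for the interaction and 1372 for refeeding in WT, and 10 and 3 members for refeeding in WT and in mCK-hLPL. With no low-count filter 492 and 793 genes were called for refeeding in WT and in mCK-hLPL. The DESeq2 size factors moved no count by 1.5 times.

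Without the 3 libraries with lymphocyte transcripts, 3 genes were called for genotype in WLM, 16 for genotype averaged, 316 for refeeding in WT, with 1 member, and 608 for refeeding in mCK-hLPL. The cause was not tested.

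Same-numbered libraries correlated from -0.36 to 0.17 over 14 pairs, 5 of them over 0.1. Libraries of different number were not correlated for comparison, so these values cannot decide whether the numbers pair the samples. With the replicate block, in the 17 numbered libraries, 2 genes were called for genotype in WLM, 1 in REL, 6 for genotype averaged, 32 for refeeding in WT, 484 in mCK-hLPL and 992 averaged, with 0 members for refeeding in WT (adjusted p from 0.193 to 0.441 for the 6 called without it) and 3 averaged, without Tgtp1 (adjusted p = 0.051) and Igtp (adjusted p = 0.094). The same 17 libraries without the block gave 166 genes and 0 members for refeeding in WT, 1 member in mCK-hLPL, 10 genes for genotype averaged, and 2170 genes and 4 members for refeeding averaged, so part of the loss comes with the fewer libraries.

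Leaving out 1 library at a time gave 3 to 7 genes for genotype in WLM, 2 to 3 in REL, 20 to 42 averaged, 0 to 1 for the interaction, 257 to 1027 for refeeding in WT, 674 to 1705 in mCK-hLPL and 2626 to 3647 averaged. Members called ranged from 0 to 12, 0 to 2 and 5 to 13 for refeeding in WT, in mCK-hLPL and averaged, and were 0 for the other 4 contrasts. At 35595030 counts or more per library, depth limits mainly Ido1 and Ifi44, with 3 to 29 counts per library.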
